A study of Homo sapiens with 19 samples.

Results

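The 74 genes described here are the RefSeq GRCh38 protein-coding genes of the linker histones (symbols starting with H1-) and of the clustered core histones (H2AC, H2BC, H3C and H4C), chosen by symbol out of 20037 protein-coding genes. They comprise 10 H1, 17 H2A, 19 H2B, 13 H3 and 15 H4 genes. The study profiled human triple-negative breast cancer cell lines by ChIP-seq, with 19 samples, of which 12 were precipitated for H3K27ac, 4 for OCT-2 (the octamer-binding factor encoded by POU2F2) and 3 were inputs. The histone genes were set against 3 deposited hg38 lists, namely OCT-2 peaks from 231Pa_Luc+OCT-2 cells and H3K27ac superenhancers from 231Pa_Luc+OCT-2 and from 231Pa_Luc+GFP cells. Both populations are polyclonal MDA-MB-231 cells that stably carry transgenes, luciferase with POU2F2 in the first and luciferase with GFP in the second, grown in DMEM with serum. Each list was made by the authors from 2 replicates and holds intervals without counts or scores, so the depth is unknown and no spread between replicates can be given. The labels do not say whether the replicates are separate cultures. OCT-2 was also precipitated in the metastatic clone 231-D, which carries luciferase and no POU2F2 transgene, and those libraries are not used here. It was not precipitated in the 231Pa_Luc+GFP cells. The 3 inputs came from other cells of the study (231Pa, 231-D and MDA-MB-436_Luc2), so neither population used here has an input of its own. OCT-2 from the transgene and from the endogenous gene cannot be told apart in the peaks. As a check of the label, the 5 markers fixed for a mesenchymal triple-negative line (VIM, CD44, AXL, EGFR and FOSL1) all lay at superenhancers of both populations, whereas 0 of 5 luminal markers and 0 of 5 B lymphocyte markers did. Over all protein-coding genes the shares were 5.27% in 231Pa_Luc+OCT-2 and 3.94% in 231Pa_Luc+GFP, so a count of 0 of 5 says little.

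Core histones H2A, H2B, H3 and H4 form the protein spool of the nucleosome, and linker histone H1 binds the DNA where it enters and leaves the particle. Most of these genes are short, lack introns and are transcribed in S phase, when new chromatin is assembled, and many H2A and H2B genes start back to back from one shared promoter. The octamer element is the classical sequence of H2B promoters. The ubiquitous factor OCT-1 (POU2F1) acts through it together with the coactivator complex OCA-S, and OCT-2 recognises the same letters. H4 promoters carry another element, bound by HINFP, and NPAT acts as coactivator for several histone classes. A few genes in the set differ in use: H1-10 is transcribed outside S phase, H1-6, H1-7, H2AC1 and H2BC1 are known from the testis and H1-8 from the oocyte.

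The octamer (ATTTGCAT, searched on both strands) was looked for in the RefSeq promoter windows of GRCh38.p14, which run from 250 bases before to 50 bases after a gene start and were at hand for 67 of the 74 genes. It was found in the windows of 26 genes (38.8%), against 2.22% of the 15843 protein-coding genes in the same table. Because divergent genes share their promoter, the 26 genes rest on 17 distinct octamers. The 8 octamers that lay inside an OCT-2 peak are shown first, each with 8 bases on either side and the octamer in capitals, printed on the strand that reads ATTTGCAT.
H2BC18 (chr1:149812404-149812427, minus strand): gagtcttcATTTGCATacgggctc
H2AC21 (chr1:149888158-149888181, plus strand): agccccttATTTGCATgccaggat
H2AC4 (chr6:26033721-26033744, plus strand): catccttcATTTGCATgtaatcct
H2BC3 (chr6:26043818-26043841, minus strand): aattccatATTTGCATaaacccca
H2BC4 and H2AC6 (chr6:26124034-26124057, minus strand): catacctcATTTGCATagctctgc
H2BC11 and H2AC11 (chr6:27132827-27132850, minus strand): ttcaccttATTTGCATaagcgatt
H2BC12 (chr6:27146889-27146912, minus strand): ttcaccttATTTGCATgagaggtc
H2BC17 and H2AC17 (chr6:27893268-27893291, minus strand): gaaagctcATTTGCATtaagagga

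The other 9 octamers lay in no peak. They are shown the same way, because their core letters do not differ from those above.
H2BC21 and H2AC20 (chr1:149886713-149886736, minus strand): gagccctaATTTGCATaaggtggt
H2BC1 and H2AC1 (chr6:25726665-25726688, plus strand): atcgcctcATTTGCATtcacgcca
H2BC6 (chr6:26183645-26183668, plus strand): gctccttcATTTGCATgcagactt
H2BC7, H2AC7 and H3C4 (chr6:26199397-26199420, plus strand): atcacctaATTTGCATaccacagg
H2BC8 and H2AC8 (chr6:26216721-26216744, minus strand): aattctttATTTGCATgaaaggcc
H2BC9 (chr6:26251557-26251580, plus strand): aagcacctATTTGCATaaaagacc
H2BC10 (chr6:26272878-26272901, plus strand): ccagcctcATTTGCATatacacga
H2BC14 and H2AC14 (chr6:27814966-27814989, plus strand): tactcctaATTTGCATaataacat
H2AC16 (chr6:27865103-27865126, minus strand): atcacctcATTTGCATaagaattc

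The letters beside the octamer were similar in both sets. Of the 17, 15 had T at the second base before the octamer (7 of the 8 inside peaks and 8 of the 9 others), and 10 were followed by A. In 3 the octamer was directly preceded by A, and none of these lay inside a peak: they were the octamers of H2BC21 with H2AC20, of H2AC7 with H2BC7 and H3C4, and of H2AC14 with H2BC14. These are only 3 sites, noticed among several positions read on either side, and a difference between the sets was not tested.

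OCT-2 peaks lay close to many histone genes. At least 1 peak was within 1 kb of an end of 23 of the 74 genes (31.1%, exact 95% interval 20.8 to 42.9%), while the share over all protein-coding genes was 2.91%. Among other protein-coding genes shorter than 3 kb, which histone genes resemble in length, 28 of 1872 (1.5%) had a peak. Neighbouring histone genes are not independent: the 23 genes rest on 17 peaks, of which 9 counted for 2 genes. Intervals therefore cover counting error only, and no test over samples was possible with 1 list per condition.

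In most cases the peak touched the gene. It covered a gene end in 15 of the 23, its edge was at most 100 bp away in 3, and it was farther in 5. The end concerned was the gene start in 15 genes and the 3′ end in 6, and for H4C3 and H2AC12 the strand was not at hand. The genes just inside the limit were H1-4 at 833 bp, H3C13 at 650 bp, H1-2 at 537 bp and H2AC20 at 509 bp. Those just outside were H2BC15 at 1040 bp, H2BC21 at 1238 bp, H3C3 at 1429 bp and H2AC18 at 1493 bp. The limit thus separates genes with similar distances. With 10 kb in place of 1 kb the count was 40 of 74 genes (54.1%), against 9.73% of all protein-coding genes, and 34 histone genes had no peak within 10 kb.

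**Figure D1:**
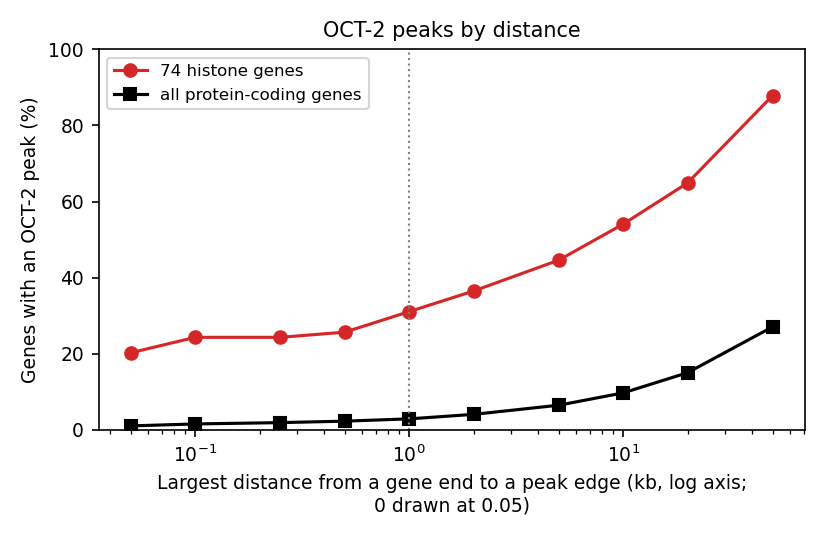
Share of genes with an OCT-2 peak (y axis, %) as the allowed distance from a gene end to a peak edge grows (x axis, kb, log scale), for the 74 histone genes (red) and all 20037 protein-coding genes (black). The dotted line marks 1 kb, where the shares were 31.1% and 2.91%, and the leftmost points, for peaks covering a gene end, were at 20.3% and 1.06%.

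H2B genes, the classical octamer carriers, had a peak in 7 of 19 cases (36.8%, interval 16.3 to 61.6%). These were H2BC3, H2BC4, H2BC5, H2BC11, H2BC12, H2BC17 and H2BC18, and in each the peak reached to within 12 bp of the gene or over its start. At H2BC3 the peak (hg38 chr6:26043697-26043955) was centred at -110 bp from the start, on the upstream side. At H2BC18 (chr1:149812311-149812575) the centre was at -70 bp, at H2BC11 (chr6:27132735-27132985) at -62 bp, and at H2BC12 (chr6:27146845-27147109) at -116 bp. H2BC4 had 2 peaks, with centres at -105 bp (chr6:26123909-26124158) and at 875 bp downstream of its start (chr6:26122900-26123200), the latter inside the annotated gene. The 12 H2B genes without a peak were H2BC1, H2BC6 to H2BC10, H2BC13 to H2BC15, H2BC21, H2BC26 and H2BC12L.

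H2A genes had a peak in 8 of 17 cases (47.1%, interval 22.98 to 72.2%). Of these, H2AC6, H2AC11, H2AC12 and H2AC17 lay opposite an H2B gene with the same peak, whose edge was 0 to 58 bp from the H2A gene. H2AC4 had a peak of its own (chr6:26033553-26033832, centre at -76 bp) and a second that belonged to the start of H3C2. H2AC21 had the widest of the 17 peaks (chr1:149887920-149888301, 382 bp), centred at -143 bp. At H2AC20 and H2AC15 the peak lay off the 3′ end, at 509 and 351 bp. The gene start was thus the end concerned in 5 of the 8 H2A genes, the 3′ end in 2, and for H2AC12 the end facing H2BC12.

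Peaks also lay at H4 and H3 genes. H4 gave 4 of 15 (26.7%, interval 7.79 to 55.1%): H4C2 (chr6:26027119-26027464, centre at -6 bp), H4C8 (chr6:26285445-26285697, centre at -38 bp), H4C3, whose peak (chr6:26103873-26104114) was centred inside the gene, and H4C15. The peak of H4C15 (chr1:149844243-149844522) lay over the 3′ end of its long annotated body, 16637 bp from its start. H3 gave 2 of 13 (15.4%, interval 1.92 to 45.4%). H3C2 had a peak over its start (chr6:26032009-26032315, centre at -64 bp), and H3C13 was counted through the peak of H2BC18, 650 bp from its 3′ end, and dropped out with a limit of 500 bp.

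Linker histone genes gave 2 of 10 (20%, interval 2.52 to 55.6%), neither with a peak at its start. H1-2, one of the main somatic linker histones, had a peak 537 bp from its 3′ end (chr6:26054930-26055203). H1-4, also a somatic subtype, was counted at 833 bp through the peak over the start of H2BC5 (chr6:26157948-26158207). H1-10 had none, nor did H1-6, H1-7 and H1-8. The intervals of all 5 classes overlap and the classes share peaks, so an order among them cannot be read from these counts. For H1 and H3 the interval also includes the 2.91% of all protein-coding genes.

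**Figure D2:**
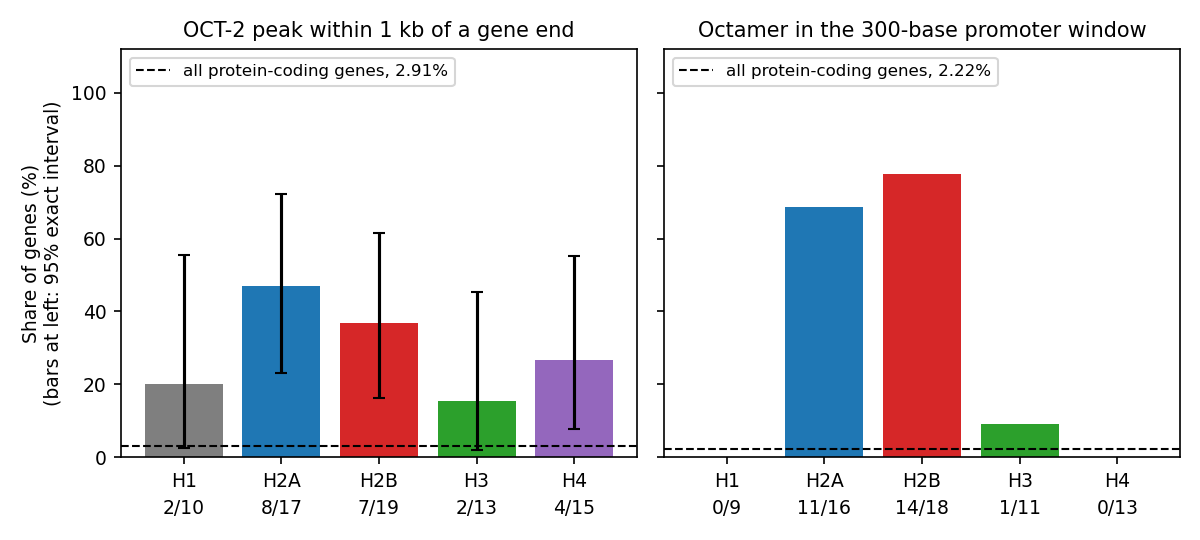
Share of genes in each histone class (y axis, %) with an OCT-2 peak within 1 kb of a gene end (left, with exact 95% intervals) and with an octamer in the promoter window (right, no interval since every window at hand was read). Fractions under the classes give genes with the feature over genes examined, and dashed lines mark all protein-coding genes (2.91% and 2.22%). Peaks occurred in every class, with intervals that include the dashed line for H1 and H3, while octamers were found in H2A, H2B and 1 H3 gene.

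The genes fall into 6 groups of 2 or more neighbours (at most 300 kb between neighbours), which hold 70 of the 74, and 4 single genes, none with a peak. Peaks were spread over 4 of the 6 groups. The large group on chromosome 6 from H2AC1 to H4C8 (hg38 chr6:25726063-26285534, 559 kb) had a peak at 11 of 34 genes. The small group from H2BC11 to H2AC12 (chr6:27132316-27147562, 15.2 kb) had one at 4 of 5, all but H4C9. The third chromosome 6 group, from H2BC13 to H2BC17 (chr6:27807479-27893891, 86.4 kb), had one at 3 of 16. On chromosome 1 the group from H2BC18 to H2AC21 (chr1:149782689-149887965, 105 kb) had one at 5 of 11, and the pair H2AC25 and H2BC26 had none. H1-10 and H1-8, grouped on chromosome 3, also had none.

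Peak density in the 4 groups with a peak at a histone gene was 21.4, 116, 22.6 and 28.0 per Mb in the order given, against 1.89 per Mb over the chromosomes. These 4 were picked by their peaks, so a high density there is partly given by the choice. The value of 116 rests on 2 peaks in 15.2 kb. In the other groups the density was 0 for H2AC25 with H2BC26 and 4.19 per Mb for H1-10 with H1-8. Of 12 non-histone protein-coding genes within the groups, 0 had a peak within 1 kb of an end, against 2.91% of all protein-coding genes. Among the 12 were HFE, TRIM38, FCGR1A and the SLC17A transporter genes. With so few genes, a count of 0 is near the share over all genes. TRIM38 and MBD4 each held 1 peak within the gene, more than 1 kb from its ends. Of 19 histone pseudogenes, 2 (H2AC5P and H2BC19P, 10.5%) had a peak within 1 kb, in both cases one already counted for a histone gene. H2AC5P lies 187 bp from H2BC3 and was covered at one end by the same peak.

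Within the large chromosome 6 group the peaks were uneven. From H4C2 to H2BC5 10 of 12 genes had one, whereas the 16 consecutive genes from H2BC6 to H2BC10, spanning 89.7 kb, had none within 1 kb, and H4C8 at the far end had one again. This stretch includes 8 genes with an octamer in the promoter window, resting on 5 distinct octamers, none inside a peak. The single peak in the stretch (chr6:26220367-26220635) lay 2930 bp from H2AC8 and 1127 bp from the pseudogene H3C5P. In the third group, 7 consecutive genes from H2BC13 to H4C12 and 6 from H2BC15 to H3C12 had no peak.

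**Figure D3:**
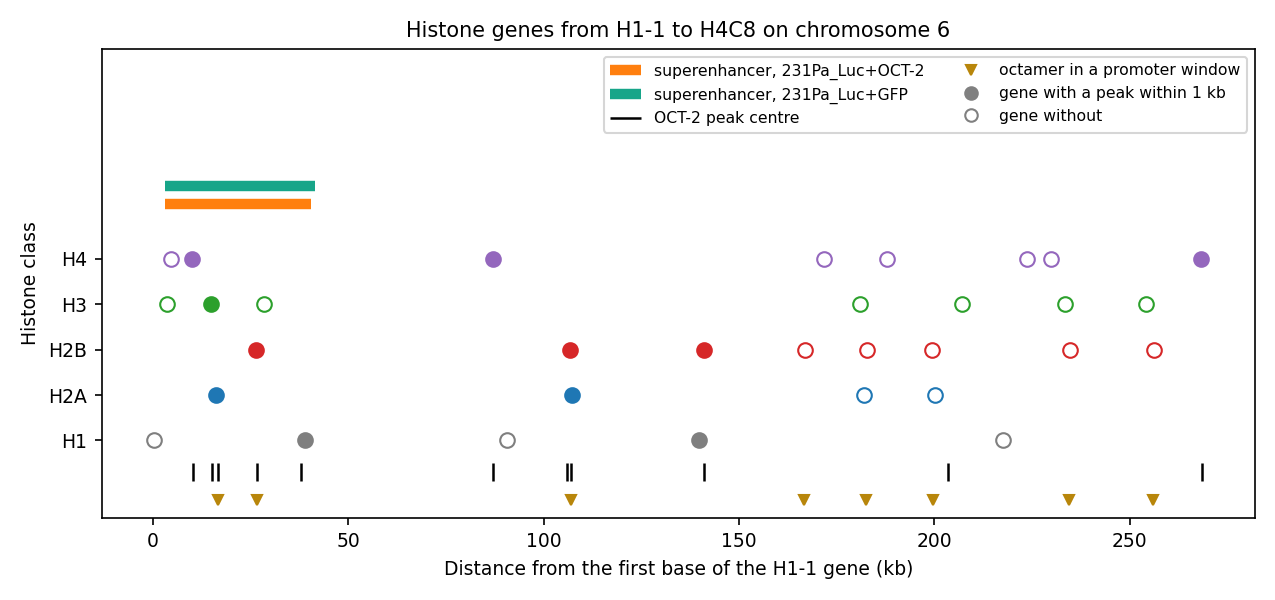
Histone genes from H1-1 to H4C8 on chromosome 6 by position (x axis, kb from the first base of H1-1) and class (y axis); filled circles have an OCT-2 peak within 1 kb and open circles do not. Genes annotated over more than 3 kb are drawn at their start, vertical strokes are peak centres, triangles are octamers in promoter windows, and horizontal bars are the superenhancers of both populations. Peaks crowd the left part, including the superenhancer, and the 16 genes from H2BC6 to H2BC10 are all open although 5 octamers lie among them.

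Shared promoters were examined as divergent pairs, neighbours on opposite strands with starts at most 1 kb apart. By strand, 13 such pairs were found over 12 intergenic segments, 11 of an H2A with an H2B gene (194 to 248 bp apart) and 2 of an H3 with an H2B gene. In 3 of the 13 a peak was centred between both starts, and there both partners counted: H2BC4 with H2AC6, H2BC11 with H2AC11, and H2AC17 with H2BC17 (chr6:27893160-27893413). H2BC12 and H2AC12, 248 bp apart, had the same arrangement, but the strand of H2AC12 was not at hand. In 2 further pairs only the H2A partner counted, H2AC20 (with H2BC21) and H2AC15 (with H2BC15), through peaks beyond the far end of the gene. The other 8 pairs had no peak. Among the pairs, 10 held an octamer between their starts, and all 3 with a peak between the starts were among these. The 25 genes in pairs had a peak in 8 cases (32.0%), and the other 49 in 15 (30.6%). Genes paired by their gene bodies alone, without a strand for 1 partner, are among the other 49. They are H2BC12 and H2AC12, both with a peak, and H3C1, H4C1, H3C11 and H4C13, all without one. No share was computed with these genes moved into the pairs.

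At the letters themselves, the octamer ran in one direction relative to the genes. It read ATTTGCAT on the strand of the H2B gene in 13 of 14 H2B windows, and on the opposite strand in 10 of 11 H2A windows. The exception in both was the pair H2AC17 and H2BC17, where it read on the H2A strand, and this pair had a peak. In H2B windows the octamer began in one of 2 zones. In 8 genes it lay between -49 and -45 bp, and 3 of these (H2BC11, H2BC12 and H2BC18) had a peak. In the other 6 it lay between -149 and -104 bp, and 3 of these (H2BC3, H2BC4 and H2BC17) had a peak. Both placements of the element thus occurred with and without a peak.

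**Figure D4:**
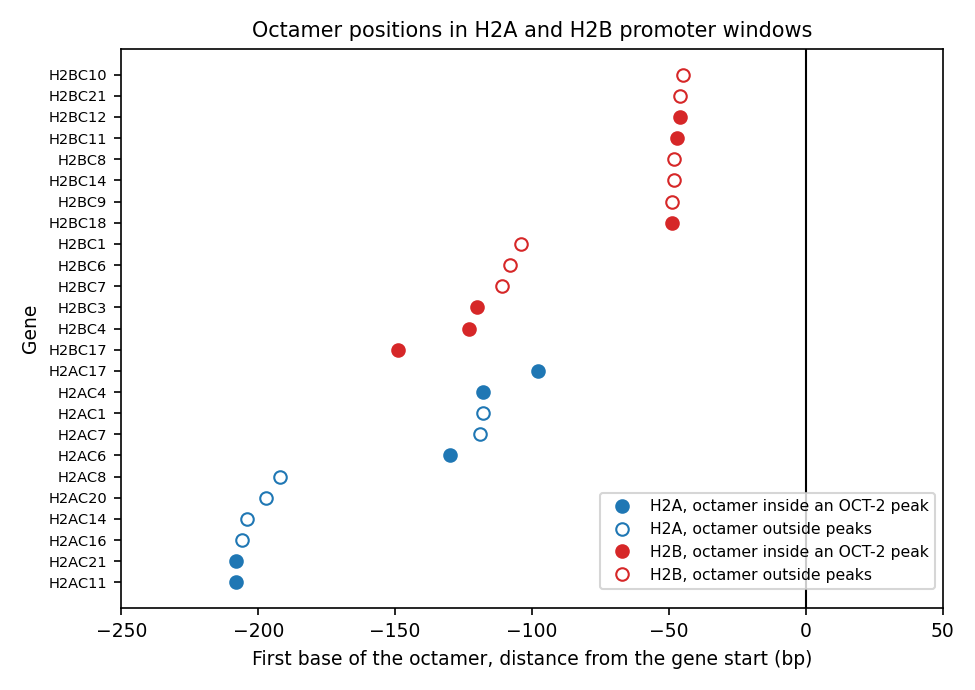
First base of the octamer in the promoter windows of H2A (blue) and H2B (red) genes, as distance from the gene start (x axis, bp, negative is upstream), 1 gene per line. Filled points are octamers inside an OCT-2 peak and open points are octamers outside peaks; filled and open points occur in each zone.

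By class, an octamer was found in 14 of 18 H2B windows (77.8%), 11 of 16 H2A windows (68.8%), 1 of 11 H3 windows and none of the 9 H1 and 13 H4 windows. The H3 gene is H3C4, which shares its start with H2AC7. Octamers and peaks met often, but each also occurred without the other. Of the 26 genes with an octamer, 12 (46.2%) had a peak within 1 kb, and of the 41 without one, 9 (22.0%) did. Over all protein-coding genes these shares were 17.1% of 351 and 2.76% of 15492. Counted as distinct sites, 8 of 17 octamers in histone windows (47.1%) lay inside a peak, against 54 of 334 (16.2%) in other protein-coding windows. Where an octamer lay inside a peak, it was 4.5 to 73.5 bp from the centre with a median of 21.5 bp, and the median for other promoters was 17.5 bp. The farthest were H2BC12 at 73.5 bp in a peak of 265 bp and H2AC21 at 61.5 bp in a peak of 382 bp. The closest were H2AC17 with H2BC17 at 4.5 bp, H2BC3 at 6.5 bp, and H2BC4 with H2AC6 at 14.5 bp. Of the 12 peaks centred in a histone window, 8 held an octamer in the letters read (66.7%), against 17.8% of 304 peaks centred in other promoter windows. These are descriptions of the letters, and the width of a peak (242 to 382 bp at histone genes, median 265 bp) does not show which letters were bound.

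The stretches of promoter covered by the peaks of H2BC3 (chr6:26043697-26043955), H2BC4 (chr6:26123909-26124158) and H2BC11 (chr6:27132746-27132985) are shown in full, each on the minus strand of hg38, as examples of an octamer within 20 bp of a peak centre. The octamer is in capitals.
H2BC3: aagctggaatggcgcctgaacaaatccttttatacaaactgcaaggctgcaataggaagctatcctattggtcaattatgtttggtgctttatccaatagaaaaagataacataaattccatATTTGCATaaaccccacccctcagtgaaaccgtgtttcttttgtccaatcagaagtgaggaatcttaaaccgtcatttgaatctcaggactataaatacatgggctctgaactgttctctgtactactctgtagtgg
H2BC4: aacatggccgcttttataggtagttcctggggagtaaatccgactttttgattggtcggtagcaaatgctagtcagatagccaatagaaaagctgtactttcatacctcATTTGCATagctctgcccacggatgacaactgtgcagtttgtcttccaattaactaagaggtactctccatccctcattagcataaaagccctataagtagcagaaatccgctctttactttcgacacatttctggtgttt
H2BC11: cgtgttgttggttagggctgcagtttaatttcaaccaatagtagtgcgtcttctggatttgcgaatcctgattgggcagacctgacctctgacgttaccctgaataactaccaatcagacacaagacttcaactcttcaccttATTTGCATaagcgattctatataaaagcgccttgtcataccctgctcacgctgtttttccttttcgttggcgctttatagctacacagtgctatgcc

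In the other 4 peaks centred in a histone window, at H2BC5, H4C2, H4C8 and H3C2, no octamer was found in the part inside the window. That part was 85.8, 66.8, 84.2 and 86.6% of the peak, and the rest was not read. H2BC5 is shown (chr6:26157948-26158170, plus strand) because it held 2 stretches that differ from the octamer by 1 letter, both in capitals. With positions counted from 1 at the 5′ end of ATTTGCAT, the one 1.5 bp from the peak centre differs by C6A and the one 59.5 bp away by T4G. Of the windows without an octamer, those of H2AC18, H2AC19, H2AC25 and H2BC26 also held 2 such stretches each. None of these genes had a peak within 1 kb. In H2BC26 ATTTGAAT began at -45 bp, and in the 2 windows of H2BC5 at -44 and -45 bp. With 1 mismatch allowed, 16.8% of all genes matched. Whether either stretch was bound was not tested. The stretches of H4C2 (chr6:26027234-26027464, minus strand) and H4C8 (chr6:26285485-26285697, minus strand) are shown because neither stretch held the octamer or a stretch 1 letter away. Capitals in them mark GGTCC on either strand, part of the H4 promoter element.
H2BC5: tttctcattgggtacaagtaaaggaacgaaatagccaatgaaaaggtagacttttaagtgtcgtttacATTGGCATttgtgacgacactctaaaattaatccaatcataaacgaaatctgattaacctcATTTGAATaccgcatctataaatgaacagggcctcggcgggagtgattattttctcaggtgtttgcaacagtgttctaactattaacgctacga
H4C2: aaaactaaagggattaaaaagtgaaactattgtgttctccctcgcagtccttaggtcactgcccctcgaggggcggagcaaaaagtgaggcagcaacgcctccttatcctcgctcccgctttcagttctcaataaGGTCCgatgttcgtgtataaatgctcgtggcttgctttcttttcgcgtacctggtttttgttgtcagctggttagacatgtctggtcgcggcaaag
H4C8: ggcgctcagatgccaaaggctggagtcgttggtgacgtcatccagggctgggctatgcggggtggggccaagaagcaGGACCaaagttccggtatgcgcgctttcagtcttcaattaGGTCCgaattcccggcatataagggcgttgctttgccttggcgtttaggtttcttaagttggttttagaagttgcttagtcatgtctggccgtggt

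Other promoter letters differed by histone class. GGTCC was in 12 of 13 H4 windows (92.3%, all protein-coding genes 57.7%) and AAACACA, the H1 box, in 7 of 9 H1 windows (77.8%, against 5.83%). CCAAT was in all H2A, H2B and H3 windows examined and in 3 of 13 H4 windows (42.1% over all genes). TATAAA was in 44 of the 67 histone windows (65.7%, against 12.4%). All motifs were read on both strands, and none is contained in another. H4C14 and H4C15 have identical promoter windows, and those of H4C11 and H4C12 differ at 5 of 300 bases. The treatment of reads matching several copies is not stated in any source at hand, so a missing peak at these 4 starts is uncertain.

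Superenhancers are wide stretches of dense H3K27 acetylation, a mark of active promoters and enhancers. One superenhancer of each population met the histone genes, over the same part of chromosome 6. Of the 74 genes, 8 (10.8%, interval 4.78 to 20.2%) overlapped it in 231Pa_Luc+OCT-2 and 8 in 231Pa_Luc+GFP, against 5.27% and 3.94% of all protein-coding genes. The same 8 genes did so in both lists: H3C1, H4C1, H4C2, H3C2, H2AC4, H2BC3, H3C3 and H1-2. They are 8 neighbours, so the count rests on 1 region and is not 8 separate events.

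The region spanned 37.4 kb in the OCT-2 cells (hg38 chr6:26020206-26057601) and 38.4 kb in the GFP cells (chr6:26020193-26058587). The former lay wholly within the latter and covered 97.4% of it. No other protein-coding gene lay in it. It was narrow for its kind, 470th by width of 518 in the OCT-2 list (median 84.9 kb) and 322nd of 337 in the GFP list (median 105 kb). With as many of the widest OCT-2 regions as the GFP list holds, it dropped out and 0 histone genes remained at a superenhancer of the OCT-2 cells.

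OCT-2 peaks were dense in this region. It held 5, or 134 per Mb, the 3rd highest density but the 14th highest number among the 518 superenhancers of the OCT-2 cells, which held 17.9 per Mb over their whole length and a median of 1 peak. A peak within 1 kb was present at 5 of its 8 genes (62.5%): H4C2, H3C2, H2AC4, H2BC3 and H1-2. H3C1, H4C1 and H3C3 did not. Among other protein-coding genes at superenhancers of these cells, 81 of 1047 (7.74%) had a peak within 1 kb. Outside superenhancers 18 of 66 histone genes (27.3%) had one. The nearest superenhancer to the chromosome 1 group was 599 kb away in the OCT-2 cells, and those of the other chromosome 6 groups were 1075 and 1750 kb away, so the peaks at H2BC11, H2BC12, H2BC17 and H2BC18 lay far from any listed superenhancer.

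Genes that serve histone supply were examined by the same rule, for which the shares over all protein-coding genes were 2.91% for peaks and 5.27% and 3.94% for superenhancers of the OCT-2 and GFP cells. The lists are short, and no difference from those shares was tested. Of 17 genes of histone gene transcription and 3′ end processing, among them NPAT, HINFP, CASP8AP2, SLBP and LSM11, 0 had a peak within 1 kb, and the nearest peak to SLBP, the stem-loop binding protein, was at 2378 bp. LSM10, a subunit of the U7 particle, was the only one of them at a superenhancer, in both populations. Of 7 octamer factors and OCA-S subunits, only POU2F1, the gene of OCT-1, had a peak, and only POU2F2 lay at a superenhancer, again in both. Of 14 histone chaperone genes, 3 (21.4%) had a peak: IPO4, an importin, SSRP1, a subunit of FACT, and NAP1L4. NAP1L1 lay at a superenhancer in both populations. Of 16 variant histone genes outside the rule, 2 (12.5%) had a peak, H3-3B, which encodes H3.3, with a peak over a gene end and H2AZ1 at 886 bp. H2AX, H2AJ, H2AZ2 and CENPA had none.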

How the data were processed

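Chromatin was precipitated with 5 µg of antibody and libraries had 15 PCR cycles (labels' protocols). Tools listed in the submitters' processing notes are HOMER, bedtools, Bowtie and Bowtie2 (2.2.2.6), with no roles or thresholds given in the sources used here. Deposited lists hold start and end positions per region (1-based here), made by the authors from 2 replicates. OCT-2 peaks numbered 5741, of which 5 on unplaced contigs were left out, and superenhancers 518 and 337. Lists in hg19 and those of other cells were not used, and no coordinates were converted.

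Genes were placed by RefSeq coordinates (GRCh38.p14), and starts, strands and letters from its promoter table. A gene was called when a peak edge lay within 1 kb of either gene end, or when its body overlapped a superenhancer by 1 bp or more. Shares have exact (Clopper-Pearson) 95% intervals. No test was run, since each condition has 1 list. Named genes are all members with a peak or superenhancer, those in pairs with a peak, those nearest outside 1 kb, and members of the related lists with a peak or superenhancer; a few others are named to show what had none. The members and lists were chosen with earlier results of these data known. Protein identity was not computed. Functions were tested on simulated data. Python 3.11.15, pandas 2.3.3 and scipy 1.17.1 were used.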

Additional observations from a re-analysis of the deposited data

How the results depend on the processing

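Of 35 alternatives over 9 results, 31 gave a count within 1.5 times the one reported. The count of histone genes with an OCT-2 peak, 23 of 74, was 40 within 10 kb and 0 with only peaks of more than 2 merged calls, of which the list holds 3. It ranged from 16 to 27 in the other alternatives. With a limit of 500 bp, 19 of the 23 genes were kept (without H1-2, H1-4, H2AC20 and H3C13), and H3 genes with a peak fell to 1 of 13. With each peak given to its nearest gene alone, 16 of the 23 were kept. By gene starts only, 16 of 67 genes had a peak within 1 kb, against 3.12% of all genes in the promoter table. Histone genes at superenhancers of 231Pa_Luc+OCT-2 were 0 with only as many of the widest regions as the GFP list holds. The octamer count was 35 of 67 with 1 mismatch allowed, against 16.8% of all genes. No paired analysis was possible because the lists merge both replicates and no result comes from a test, and for the same reason no replicate could be left out. Read depth behind the lists is unknown, so a gene without a peak may be below detection.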

Other observations

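A further promoter element was read after the letters under the peaks had been seen. The cyclic AMP response element TGACGTCA was in the promoter windows of 9 of 67 histone genes (13.4%), against 3.00% of all protein-coding genes in the table. It was present at 3 of 21 genes with an OCT-2 peak (H3C2, H4C8 and H2BC12) and at 6 of 46 without (H3C14, H3C15, H4C5, H2AC14, H2BC14 and H2AC16). At all 3 genes with a peak it lay in the stretch covered by the peak. The stretch at H2BC12 also held an octamer, and none was found in the parts read at H3C2 and H4C8.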
